A study of Mus musculus with 4 samples.

Results

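A set of 10 genes widely used as readouts of Wnt/β-catenin activity was followed in 4 melanocyte lines: Axin2, Nkd1, Nkd2, Wif1, Notum, Rnf43, Znrf3, Lef1, Sp5 and Tnfrsf19. They were taken by name, and every probe set listed with 1 of them alone was used. These were 21 of the 45037 probe sets on the array, and the 10 genes are part of 18193 genes with a probe set of their own. Of the 10 genes, 7 reached the detection level, an intensity of 32 in at least 1 line, as did 9415 of all genes. Lines were established from skin of pups of C57BL/6J mice aged 3 days, and RNA of each line was hybridised to 1 Affymetrix array. The bcat* mice carry a transgene for a stable, transcriptionally active β-catenin that is made in the melanocyte lineage only, and each line derives from such a transgenic or a wild-type (WT) background, so that a line and its genotype cannot be told apart. The lines were immortalized, fibroblasts were selected against with G418 while they were established, and all were grown with 200 nM TPA, a phorbol ester that supports melanocytes in culture.

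The genotypes of 13d and 14d are given in conflicting ways. The sexes named here are those of the labels, while the article's methods describe the source of the lines as male mice. Line 10d (male) is bcat* and line 9v (male) is WT in every source. Line 13d (female) is bcat* and line 14d (female) is WT in the sample titles, whereas the article lists 13d as WT and 14d as bcat*. Each reading thus sets 1 male and 1 female line against 1 male and 1 female line, and the readings differ only in the direction of the female pair. With 4 different values, the brighter pair of lines is always exactly 1 of 3 pairings: the one of the titles' genotypes (10d with 13d against 14d with 9v), the one of the article's genotypes (10d with 14d against 13d with 9v), or the one of sex (13d with 14d against 10d with 9v). Genotypes are called labelled bcat* and labelled WT below where they follow the titles.

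In the absence of a Wnt signal, β-catenin is bound by a destruction complex and degraded. When Wnt ligands engage their receptors, or when β-catenin is made in a stable form, it accumulates, enters the nucleus and joins Tcf/Lef factors at target genes. Many of these targets encode inhibitors of the pathway and so form negative feedback loops. Axin2 is a scaffold of the destruction complex, Nkd1 and Nkd2 act on Dishevelled in the receiving cell, Wif1 and Notum act on Wnt ligands outside the cell, and Rnf43 and Znrf3 are membrane ubiquitin ligases that clear Frizzled receptors from the surface. Lef1 is a partner of β-catenin on DNA, Sp5 is a zinc finger transcription factor and Tnfrsf19 is a receptor of the TNF receptor family. In melanocytes, β-catenin acts together with the lineage factor Mitf.

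The labels were first set against genes that report on them. Xist had an intensity of 4 in line 10d, 2124 in 13d, 1768 in 14d and 4 in 9v, and Eif2s3y, on the Y chromosome, had 1088 in 10d, 13 in 13d, 13 in 14d and 690 in 9v. Both go with the sexes in the labels, and not with a male source of 13d and 14d. Since 13d and 14d are both female, these genes do not tell them apart. All 10 melanocyte markers were detected, with summed intensities between 280142 and 296536 in the 4 lines. Of keratinocyte markers 1 of 8 was detected (Krt10), and of fibroblast markers 1 of 8 (Col1a2), while Krt5, Krt14, Col1a1, Col3a1 and Dcn stayed under the level in every line. Of 8 listed Schwann cell markers, 5 had a probe set of their own. Of these, 3 were detected (S100b, Cnp and Pmp22), and Mbp and Gfap were not. Ctnnb1, the gene of β-catenin, had an intensity of 31799 in 10d, 34368 in 13d, 31844 in 14d and 30254 in 9v. These values are from its brightest probe set on average, which ordered the lines by sex. Of 3 detected probe sets of Ctnnb1, 2 had that pairing, this one included. Whether any of them reads transcripts of the transgene is not given in the sources used here, so that Ctnnb1 did not settle the genotype of any line.

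The stretches before the transcript starts of the members were searched for the Tcf/Lef motif, since these genes are followed as β-catenin targets. The motif was searched on both strands, in the 250 bases before each start, in the spelling CTTTGAA, in the spelling CTTTGAT, in the spelling CTTTGTA and in the spelling CTTTGTT, which exclude each other at a position. The RefSeq table of assembly GRCm38.p6 held 13 such windows for 8 members, all but Znrf3 and Notum. A match was found in 3 of the 13 windows (23.1%), against 14.8% of all 32851 windows of the same length. Windows of 4 genes are shown, with matches in capitals. Those of Axin2 and Nkd1, which differed in the same direction in the male and in the female pair, hold no match. Tnfrsf19 went opposite ways in these pairs. The window of its downstream start, shown here, holds 1 match, and that of its upstream start holds none. The window of Sp5, which was not detected in any line, holds 2.
Axin2, chr11:108920099-108920348, plus strand: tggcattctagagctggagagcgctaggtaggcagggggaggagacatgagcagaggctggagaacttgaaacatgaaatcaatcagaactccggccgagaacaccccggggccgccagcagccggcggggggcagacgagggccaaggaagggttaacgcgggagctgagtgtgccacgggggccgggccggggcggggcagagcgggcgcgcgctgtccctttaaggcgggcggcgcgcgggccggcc
Nkd1, chr8:88527383-88527632, plus strand: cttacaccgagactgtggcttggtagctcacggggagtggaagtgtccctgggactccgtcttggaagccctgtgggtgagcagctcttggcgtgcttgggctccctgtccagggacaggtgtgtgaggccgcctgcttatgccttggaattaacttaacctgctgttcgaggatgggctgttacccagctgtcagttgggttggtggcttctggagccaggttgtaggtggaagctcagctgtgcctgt
Tnfrsf19, downstream one of its starts, chr14:61037988-61038237, minus strand: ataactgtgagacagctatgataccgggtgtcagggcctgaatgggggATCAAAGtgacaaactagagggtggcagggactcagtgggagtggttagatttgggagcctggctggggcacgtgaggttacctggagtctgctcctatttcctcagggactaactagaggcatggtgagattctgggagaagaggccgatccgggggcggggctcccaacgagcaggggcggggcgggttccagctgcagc
Sp5, chr2:70474673-70474922, plus strand: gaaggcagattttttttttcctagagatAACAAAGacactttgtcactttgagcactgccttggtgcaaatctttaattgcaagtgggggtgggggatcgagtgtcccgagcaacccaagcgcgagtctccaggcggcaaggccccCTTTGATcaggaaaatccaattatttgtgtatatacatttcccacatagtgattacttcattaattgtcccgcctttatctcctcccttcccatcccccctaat
The remaining match lay 147 bases before the most downstream start of Lef1. These matches are descriptions of letters in these windows, and no binding was measured. A link between matches and the differences between lines was not tested.

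Nkd1 followed the titles' genotypes, with less than 2-fold between the pairs when values were raised to the detection level. Its brightest probe set on average (1417278_a_at) gave intensities of 160 (10d) and 38 (13d) in the labelled bcat* lines, against 10 (14d) and 22 (9v) in the labelled WT lines. The labelled bcat* lines were thus both above the detection level and the labelled WT lines both below it. A further probe set (1429506_at) gave the same order of lines, with 53 in 10d and 41 in 13d, against 4 in 14d and 5 in 9v. Line 10d was at least 5.0-fold higher than 9v by the first and at least 1.66-fold higher by the second, where the level of 32 stands for every value below it. Line 13d was at least 1.19-fold higher than 14d by the first and at least 1.28-fold by the second. The remaining probe sets of Nkd1 were at 5 and 6 in every line. In the fit across all probe sets (limma with Benjamini-Hochberg adjustment), the second probe set had an unadjusted p of 0.00262 and an adjusted p of 0.135 between labelled bcat* and labelled WT lines, and the first an adjusted p of 1.0. Since the labelled WT values lay under the level, the fitted differences are no measure of size, and with values raised to 32 the log2 difference of the first was 1.28. Standard errors and p-values of this fit draw on a spread estimated over all probe sets, of which 20699 had none because their rounded values were equal in the 4 lines. When only probe sets that reached 32 were fitted, the second probe set had an adjusted p of 0.182. By the article's genotypes both had an adjusted p of 1.0 over all probe sets. In such cultures, fewer cells of a kind and less RNA per cell cannot be told apart.

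Summed Schwann cell marker intensities had the same pairing of lines as Nkd1, with 3643 in 10d and 9319 in 13d, against 2669 in 14d and 959 in 9v, carried by S100b (308 and 3836, against 5 and 58) and Pmp22 (1646 and 3490, against 1124 and 6). Mbp was at 7 or 8 and Gfap at 23 or below in every line, under the detection level. The part of the Schwann cell markers in the Nkd1 values was not tested.

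Nkd2, the relative of Nkd1, was above the detection level in all 4 lines and was lowest in line 9v. Its brightest probe set (1419466_at) had an intensity of 423 in 10d, 296 in 13d, 311 in 14d and 147 in 9v, a second (1434275_at) had 417, 256, 304 and 144 in the same lines, and another (1419465_at) had 204, 139, 167 and 86. In each of these probe sets the order was 10d, 14d, 13d and 9v, which is the pairing of the article's genotypes. The step between 14d and 13d that decides the pairing was small, 1.05-fold, 1.19-fold and 1.20-fold, while line 10d was 2.88-fold, 2.90-fold and 2.37-fold higher than 9v. A dimmer probe set (1457600_x_at) had 27 in 10d, 36 in 13d, 34 in 14d and 27 in 9v and ordered the lines by sex. With the brightest probe set, the log2 difference between bcat* and WT was 0.73 ± 0.56 by the titles and 0.80 ± 0.52 by the article (SE, 2 lines a genotype, limma adjusted p = 1.0 for each), so that both readings gave nearly the same value.

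Axin2 was higher in the female than in the male lines and, within each sex, lower in the labelled bcat* line. Its probe set 1436845_at had an intensity of 44 in 10d and 126 in 13d, against 226 in 14d and 96 in 9v. Line 10d was at 0.458 of the level of 9v, and 13d at 0.557 of the level of 14d. The order of the lines was 14d, 13d, 9v and 10d, which is the pairing of sex, and the lowest value was that of the line that all sources call bcat*. The log2 difference was -0.98 ± 0.92 by the titles and -0.14 ± 1.12 by the article, with a limma adjusted p of 1.0 for each. With sex as a block, the limma fit by the titles gave the same difference with an SE of 0.13 and 1 residual degree of freedom. Its unadjusted p was 0.051 and its adjusted p 0.908. This SE also draws on a spread over all probe sets, of which 20699 had none. In the same limma setting, Nkd1 (1429506_at) had an unadjusted p of 0.00118 and an adjusted p of 0.0661 by the titles. Tnfrsf19 (1448147_at) had an unadjusted p of 0.0449 by the article. In that limma fit 1527 of all 45037 probe sets had an unadjusted p up to 0.05. None passed an adjusted p of 0.05, the smallest being 0.0784. The other probe set of Axin2 (1421341_at) was at 5 in every line.

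Lef1 was detected in line 14d alone. Its probe set 1454734_at had an intensity of 12 in 10d, 20 in 13d, 85 in 14d and 8 in 9v, and its other probe set was at 5 in every line. Line 13d was thus at least 2.66-fold lower than 14d, which by the titles means lower and by the article higher in bcat*, while the male pair lay under the detection level on both sides and gives no fold. With values raised to 32, the log2 difference between bcat* and WT was -0.70 by the titles and 0.70 by the article, and the limma fit of the deposited values gave an adjusted p of 1.0 for each.

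Tnfrsf19 had the widest range among the members and followed the article's genotypes. Its probe set 1448147_at had an intensity of 14 in 10d and 7 in 14d (bcat* in the article), against 94 in 13d and 419 in 9v (WT in the article). Lines 10d and 14d were below and lines 13d and 9v above the detection level, with at least 2.94-fold between the pairs. Line 10d was at least 13.1-fold lower than 9v, and line 13d was at least 2.94-fold higher than 14d, so that by the titles the male and female pairs went opposite ways. With values raised to 32, the log2 difference between bcat* and WT was -2.63 by the article, and the limma fit of the deposited values, of which those of 10d and 14d lay under the level, gave an unadjusted p of 0.0484 and an adjusted p of 1.0. By the titles the adjusted p was 1.0 as well. The other probe sets of Tnfrsf19 (1415921_a_at and 1425212_a_at) stayed under the level, at 4 and 5 in lines 10d, 13d and 14d and at 9 and 14 in 9v. In them 13d did not differ from 10d and 14d, so that they do not show the article's pairing.

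Wif1 was detected in line 9v alone. Its only probe set (1425425_a_at) had an intensity of 8 in 10d, 8 in 13d, 8 in 14d and 78 in 9v. Line 10d was at least 2.44-fold lower than 9v, but the equal values in the other lines give no pairing of the 4 lines, and a WT line (14d by the titles, 13d by the article) did not differ from the bcat* lines under either reading. Summed fibroblast marker intensities were also highest in 9v, with 142 in 10d, 83 in 13d, 82 in 14d and 243 in 9v, through Col1a2 (80, 24, 17 and 175), whereas Col3a1 and Dcn were at 8 or below in every line. Their part in the Wif1 and Tnfrsf19 values was not tested.

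Znrf3 did not separate the lines by more than 1.06-fold. Its probe set 1435608_at had an intensity of 89 in 10d, 92 in 13d, 94 in 14d and 93 in 9v, an order that carries the titles' pairing with 1.01-fold between the pairs. The log2 difference was -0.05 ± 0.02 by the titles and -0.02 ± 0.04 by the article (limma, adjusted p = 1.0 for each). These standard errors are small through the spread estimated over all probe sets, and among probe sets that reached 32 they were 0.23 and 0.24. Rnf43, its relative, was at 5 in 10d and 6 in the other lines. Notum was at 4 and Sp5 at 5 in each line. Rnf43, Notum and Sp5 were therefore not detectable at this signal. In all, 10 of the 21 member probe sets stayed under the level, with intensities from 4 to 14, and 7 of these had equal values in the 4 lines.

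**Figure D1:**
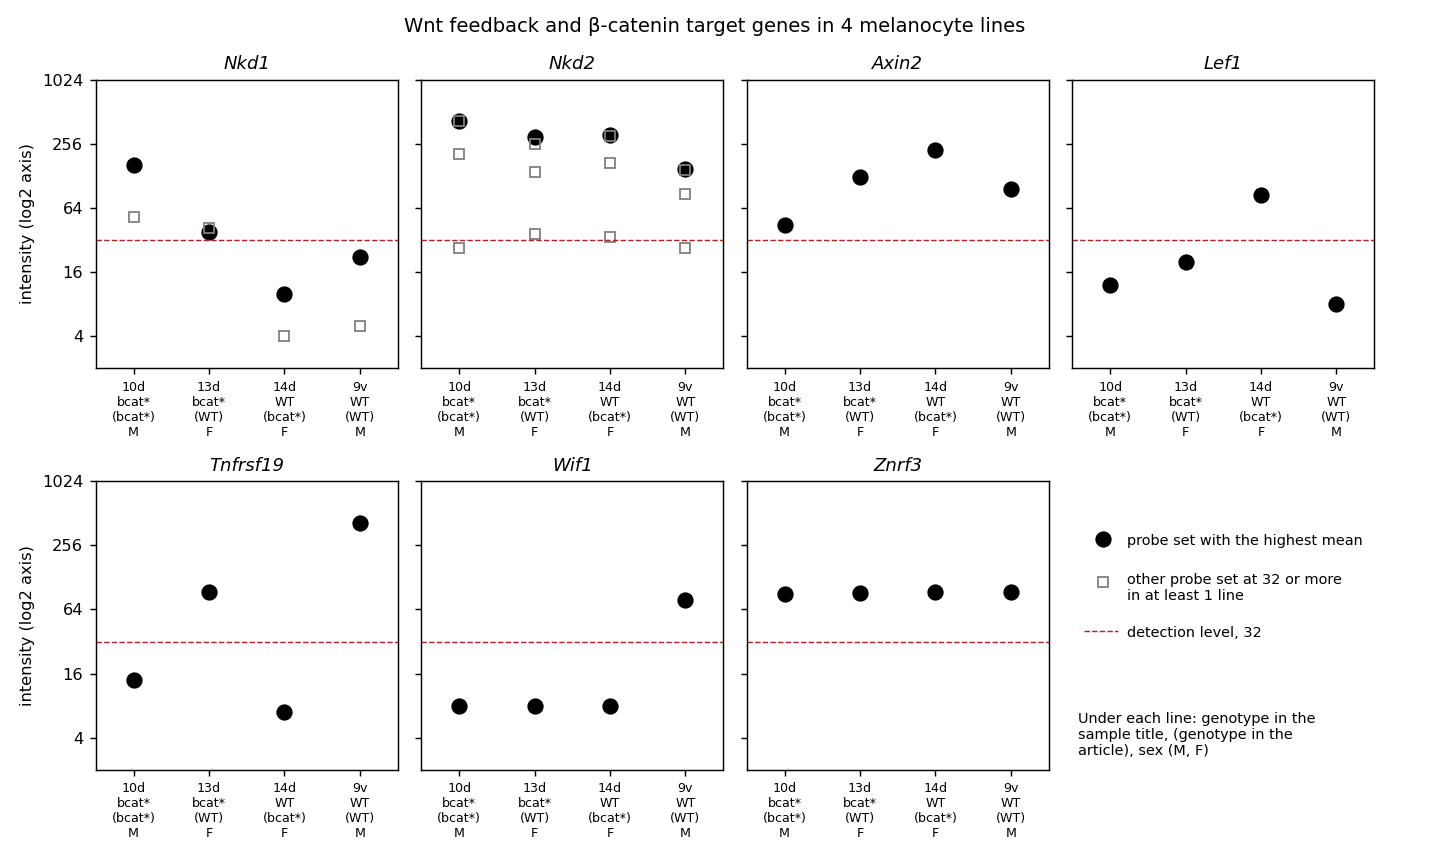
Deposited intensity (log2 axis) of the 7 detected genes in each line, 1 array per line and therefore without error bars, with labelled bcat* lines left of labelled WT lines and the article's genotype in brackets. Nkd1 was above the detection level of 32 (dashed) in 10d and 13d only, Tnfrsf19 in 13d and 9v only, Lef1 in 14d only and Wif1 in 9v only.

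Counted over the 7 detected members, with values raised to 32, the titles' pairing held for 2 genes (Nkd1 and Znrf3), the article's for 2 (Nkd2 and Tnfrsf19) and that of sex for 1 (Axin2), and Lef1 and Wif1 had no pairing. Among the 9415 detected genes, the titles' pairing held for 37.9%, the article's for 30.2% and that of sex for 25.7%, and 6.19% had none. With 7 genes, the members' counts cannot be set apart from these shares. Where the pairs had to be at least 2-fold apart, 0 members had the titles' pairing (3.0% of all detected genes), 1 the article's (1.14%, Tnfrsf19) and 0 that of sex (1.05%). The detected members did not share an order of lines. After centring each array on its median, Znrf3 moved to the article's pairing, which then held 3 members, against 1 for the titles' (Nkd1). This centring rests on medians over all probe sets of 7 in 10d and 8 in the other lines, which are rounded values under the level.

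**Figure D2:**
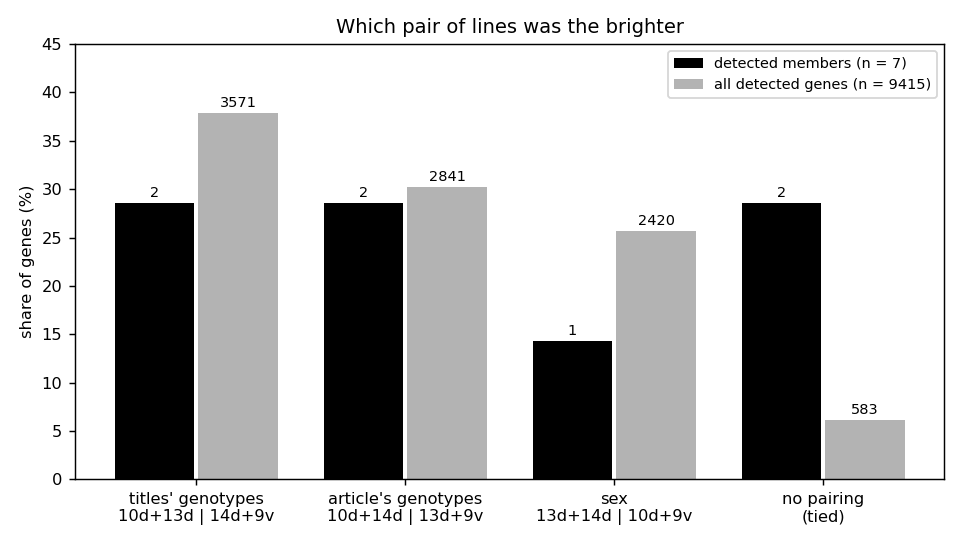
Share of genes (%) whose brighter pair of lines is that of the titles' genotypes, of the article's genotypes or of sex, or that have no pairing because the middle values were equal, for the 7 detected members (black) and all 9415 detected genes (grey), with the number of genes above each bar. The members split 2, 2, 1 and 2.

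The male pair is the only comparison for which all sources give the same genotypes. In line 10d, 2 of the 7 members were at least 2-fold higher than in 9v (Nkd1 and Nkd2), against 7.62% of detected genes, and 3 were at least 2-fold lower (Axin2, Tnfrsf19 and Wif1), against 9.72%. Log2 differences ranged from -3.71 to 2.32, with a median of -0.06, beside a median of 0.0 over all detected genes. In line 13d, 1 member was at least 2-fold higher than in 14d (Tnfrsf19), against 10.7% of detected genes, and 1 at least 2-fold lower (Lef1), against 8.54%, with a range from -1.41 to 1.56 and a median of -0.03. In both pairs at least 2-fold and in the same direction, as the titles' genotypes would set them, there were 0 members (4.66% of detected genes), and in opposite directions, as the article's would, there was 1, Tnfrsf19 (1.88%). Axin2 fell just short of the same direction at 2-fold, being 2.18-fold lower in 10d than in 9v and 1.79-fold lower in 13d than in 14d. With 1 array per line, these ratios have no replicate check. Of the male lines, Nkd1 reached the level of 32 only in 10d, and Tnfrsf19 and Wif1 only in 9v. Each of them could therefore be counted in that direction only. The same holds in the female pair for Tnfrsf19 and Nkd1, which reached it only in 13d, and for Lef1, only in 14d. All detected genes passed the same filter.

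**Figure D3:**
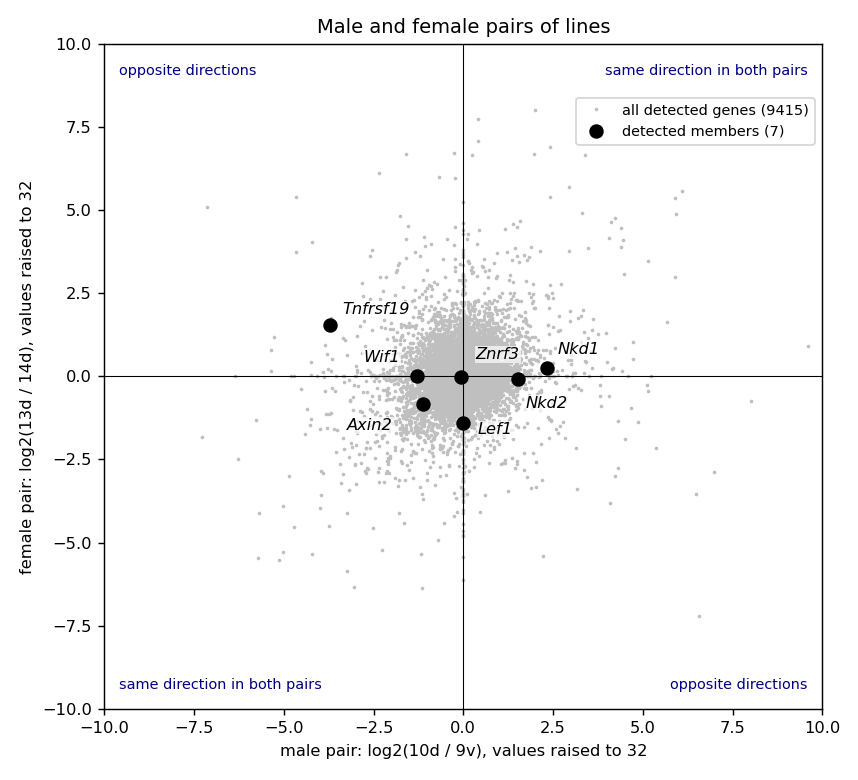
Log2 ratio of line 10d to 9v (male pair, horizontal) against that of 13d to 14d (female pair, vertical), with values raised to 32, for all 9415 detected genes (grey) and the 7 detected members (black). Tnfrsf19 lies among genes of opposite direction at -3.71 and 1.56, Axin2 among those of the same direction at -1.13 and -0.84, and Lef1 and Wif1 lie on an axis.

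In the test across all probe sets, none of the 21 member probe sets passed an adjusted p of 0.05 under either reading (limma), while 1 had an unadjusted p below 0.05 by the titles (Nkd1) and 1 by the article (Tnfrsf19), beside 2316 and 1411 of all 45037 probe sets. Of all probe sets, 791 (1.76%) passed by the titles and 209 (0.464%) by the article. Most of these were dim, since 72 of the 791 and 18 of the 209 reached an intensity of 32. When only the 17423 probe sets that reached it were fitted, 0 passed under either reading, with unadjusted p below 0.05 for 1287 by the titles and 648 by the article. The smallest adjusted p among the members was then 0.182 (Nkd1, by the titles) and 0.969 by the article. An exact two-sided permutation of 4 lines cannot fall below p = 0.333. The number of arrays therefore limits what can be said of any member.

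Other genes of the pathway were counted in 3 lists, to be read beside the shares of all detected genes, 37.9% for the titles' pairing, 30.2% for the article's and 25.7% for that of sex. Of 36 measured genes on a list of other general β-catenin targets, 19 were detected, of which 5 had the titles' pairing, 8 the article's and 6 that of sex. Line 10d was at least 2-fold higher than 9v in 1 of them, against 7.62% of all detected genes. It was at least 2-fold lower in 0, against 9.72%, and the median log2 difference was 0.17. Bambi, a decoy receptor of TGF-β signalling, had an intensity of 699 in 10d, 1534 in 13d, 2531 in 14d and 618 in 9v, at least 2-fold apart by sex. Tiam1, an activator of the GTPase Rac, had 59 in 10d and 131 in 13d (labelled bcat*), against 4 in 14d and 5 in 9v (labelled WT), the order of pairs seen in Nkd1. Line 10d was at least 1.84-fold higher than 9v and 13d at least 4.09-fold higher than 14d, with a limma adjusted p of 0.422 by the titles. Birc5, which encodes survivin, had 3838 in 10d and 3921 in 14d, against 6660 in 13d and 5346 in 9v, with lower values in the article's bcat* lines.

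Of 30 measured secreted antagonists and other inhibitors, 17 were detected, with the titles' pairing in 6, the article's in 4, that of sex in 3 and none in 4. Shisa2, which retains Frizzled receptors inside the cell, had an intensity of 8 in 10d, 893 in 13d, 384 in 14d and 11 in 9v and was thus seen in the female lines only. Frzb, a secreted Frizzled-related protein, had 54 in 10d and 62 in 14d, against 9 in 13d and 18 in 9v, with the article's bcat* lines above the level and its WT lines below. Cby1, which binds β-catenin in the nucleus, had 799 in 10d and 893 in 13d, against 518 in 14d and 419 in 9v, with labelled bcat* lines higher by 1.54-fold between the pairs. Sfrp1, another secreted antagonist, was detected in 13d alone, at 192, beside 8 in 10d, 10 in 14d and 7 in 9v.

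Of 21 measured nuclear partners, R-spondins and their receptors, 13 were detected, with the titles' pairing in 4, the article's in 2, that of sex in 6 and none in 1. Ep300, a coactivator acetyltransferase, had 785 in 10d and 621 in 13d, against 356 in 14d and 465 in 9v, and its relative Crebbp had 1402 and 1459, against 976 and 1071. Tcf7l1, a Tcf factor that often represses targets, had 454 in 10d, 1522 in 13d, 872 in 14d and 663 in 9v. Rspo2, which protects Frizzled receptors from Rnf43 and Znrf3, was detected in 14d alone, at 276, and was at 4 in each of the other lines. Rspo2 and Sfrp1 were named after their values were seen. In these 3 lists, 1 detected gene passed the limma threshold under the titles' reading, Sfrp5, with 35 in 10d and 13d and 36 in 14d and 9v, a difference of 1 unit in rounded values, and 0 passed under the article's.

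**Figure D4:**
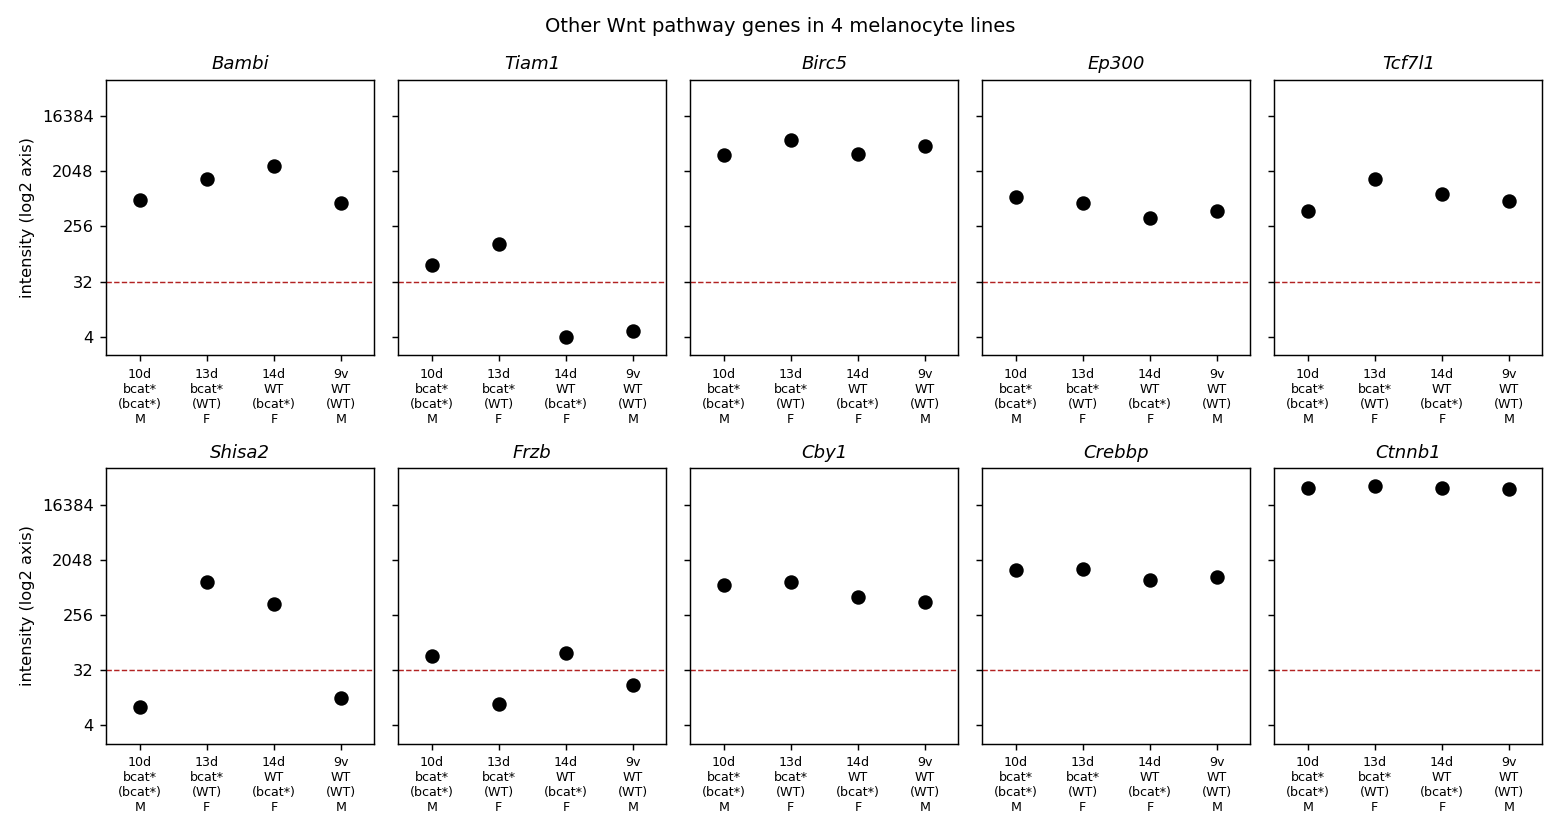
Deposited intensity (log2 axis) of Ctnnb1 and of the 3 detected genes of each list with the widest gap between pairs of lines, in the same order of lines, with the detection level of 32 dashed. Tiam1 was above the level in 10d and 13d, Frzb in 10d and 14d, and Shisa2 in 13d and 14d.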

How the data were processed

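RNA of 4 melanocyte lines, 1 array per line, was measured as 1 intensity per probe set. Per the labels, the authors deposited GCRMA values, which are corrected for background by probe sequence and normalized between arrays, and no version or other step is given in the sources used here. The deposited intensities were whole numbers from 2 to 84904 on a linear scale, as read from the values, with medians of 7 to 8. Rounding makes ratios of dim probe sets coarse. The members and lists were chosen with earlier results of these data known. Gene names came from GEO's annotation of the platform (34945 with 1 gene, 932 with several, 9160 not listed). All 10 member symbols matched the RefSeq gene table.

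Each gene was followed by its own probe set of highest mean log2 intensity. Named are all members, Ctnnb1, and the 3 detected genes of each list with the widest gap between pairs of lines. Labelled bcat* and WT lines were compared with limma on log2 intensities over all probe sets, which assumes that the lines of a genotype are replicates, and then by the article's genotypes. The article calls the lines of a genotype independent, and the labels do not name the animal of each. The script was tested on simulated data without rounding, which does not cover the equal rounded values of dim probe sets. A probe set with equal means was given a p of 1. The pairing of male and female ratios and the fits without each line among detected probe sets were added after the values were seen. Alternatives were sex as a block, other normalizations, detection levels, gaps and ways to represent a gene. R 4.3.3, limma 3.58.1, Python 3.11.15, NumPy 2.4.6 and pandas 2.3.3 were used.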

Additional observations from a re-analysis of the deposited data

Results flagged for a closer look

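In 2 members, the ratios of the male and the female pair had opposite signs under the titles' genotypes. For Tnfrsf19, the log2 ratio of the labelled bcat* to the labelled WT line, with values raised to 32, was -3.71 in the male pair (10d over 9v) and 1.56 in the female pair (13d over 14d), a difference of -5.27. For Nkd2 these ratios were 1.52 and -0.07, a difference of 1.60, and the female lines were within 1.05-fold. With 1 array per line and sex, the difference was not tested in either gene. Under the article's genotypes the female ratio changes sign, so that the signs are then the same in these 2 genes. For Axin2 (-1.13 and -0.84), Nkd1 (2.32 and 0.25) and Znrf3 (-0.06 and -0.03) it is the other way round. Their male and female ratios have the same sign under the titles' genotypes and opposite signs under the article's.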

How the results depend on the processing

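The counts of members are small and moved with the way a gene was represented and with the threshold of detection. When all own probe sets of a gene were averaged, 4 members were detected, of which 0 had the titles' pairing, 1 the article's (Nkd2), 0 that of sex, 0 were 2-fold apart by the article and 0 opposite in both pairs, and 2 differed by 2-fold between 10d and 9v. Without probe sets of suffix x, s or a, which takes out the only probe set of Wif1, 6 members were detected. Of these, 3 differed by 2-fold between 10d and 9v. At a level of 16, 2 members followed sex (Axin2 and Lef1) and 1 (Nkd1) was 2-fold higher in both pairs. At a level of 64, 1 member followed the titles, 0 were 2-fold apart by the article, 0 were opposite in both pairs and 3 differed by 2-fold between 10d and 9v. Median centring acted on a log2 difference of -0.19 between the medians of 10d and 9v over all probe sets. These medians were 7 and 8, neighbouring whole numbers far under the level. Over detected genes, with values raised to 32, the median log2 ratio of 10d to 9v was 0.0. After this centring, 1 followed the titles (Nkd1) and 3 the article (Nkd2, Tnfrsf19 and Znrf3). Axin2 then no longer differed by 2-fold between 10d and 9v. With a gap of 1.5-fold, 1 member (Axin2) went the same way in both pairs. With a gap of 3-fold, 0 were apart by the article, 0 were opposite in both pairs and 2 differed between 10d and 9v.

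In the limma fits, 16 probe sets passed by the titles and 0 by the article with values raised to 32, 14 and 0 after median centring, and 0 and 0 among detected probe sets. Cyclic loess left 56 by the article. Sex as a block, which pairs the lines of each sex, left 780 by the titles and 0 by the article. Leaving out 1 line gave 1739 to 3232 calls by the titles and 1121 to 2490 by the article over all probe sets, and 0 in each case among detected probe sets. With all probe sets and without 14d, Wif1 and the dim probe sets of Tnfrsf19 passed by the titles, and without 13d they passed by the article, because the remaining bcat* lines then held equal rounded values. Rnf43, a difference between 5 and 6, passed by the titles without 13d and by the article without 14d. Every other fit called 0 member probe sets. Of 102 member differences under alternatives, 88 shifted by less than 1.5-fold, 14 by more, 0 that were at least 2-fold turned sign and 4 smaller ones did.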
